A study of Rattus norvegicus with 48 samples.

Results

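Respiratory complexes II to V are the succinate dehydrogenase, the cytochrome bc1 complex, cytochrome c oxidase and the ATP synthase of the inner mitochondrial membrane. Their nuclear-encoded subunits were followed here in the left ventricle of male Sprague-Dawley rats, on 48 whole-genome arrays (Affymetrix Rat Gene 1.0 ST). A gene was a member when its symbol was Sdha, Sdhb, Sdhc, Sdhd, Cyc1 or Cycs or began with Uqcr, Atp5 or the name of a nuclear-encoded subunit of cytochrome c oxidase, Cox4, Cox5, Cox6, Cox7 or Cox8, and when at least 1 probe set named that gene alone. A gene with several such probe sets was followed by the one with the highest mean. This gave 44 genes of the 14506 named on the array: 4 of complex II, 7 of complex III, cytochrome c (Cycs), 16 of complex IV (1 of them the pseudogene Cox6c-ps1) and 16 of complex V. Cyc1, Cox6b1 and Cox7a1, whose symbols fit, were found under no probe set naming them alone in the table used here and were not analysed. Genes of mitochondrial DNA are not among the members.

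The rats were 3 mo or 16 mo old and had lived under 1 of 3 activity regimes. Sedentary rats (SED) were kept in pairs in standard cages with no wheel, rats of the physical activity group (PA) were active 2 times a week, and exercised rats (EX) were put alone into a cage with a running wheel every other day. In each of these 6 settings of age and activity the heart was taken either at rest or after swim, the single bout of 30 min of submaximal exercise named in the study's design. Each of the resulting 12 groups had 4 arrays, and each array carried pooled ventricular RNA of 3 rats. For the resting SED and EX hearts the methods list fewer rats than separate pools would need, so that different arrays may hold RNA of the same rats. The p-values therefore measure the spread between arrays. No transgene or deletion was involved. All values are array intensities on a linear scale after the authors' RMA normalization. Differences are given on the log2 scale with their standard error and with limma's p adjusted over all 29157 probe sets (Benjamini-Hochberg). A probe set was called at an adjusted p under 0.10.

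Oxidative phosphorylation supplies most of the ATP of the beating heart. Complex II feeds electrons from succinate into the ubiquinone pool, complex III passes them from ubiquinol to the soluble carrier cytochrome c, and complex IV transfers them from cytochrome c to oxygen. Complexes III and IV pump protons in doing so, and complex V lets the protons flow back through a ring of c subunits and couples this flow to the synthesis of ATP in its F1 head. The catalytic cores of complexes III and IV contain subunits made from mitochondrial DNA, around which the nuclear-encoded subunits measured here are assembled. Some subunits of complex IV exist in tissue isoforms, of which the "heart" forms (Cox6a2, Cox7a1, Cox8b) prevail in striated muscle and the "liver" forms (Cox6a1, Cox7a2, Cox8a) occur more widely.

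Most members were bright. The mean intensity over the 48 arrays was at least 1000 for 38 of the 44 members, against 2113 (7.25%) of all probe sets. The dimmest were Cox8c, the testis isoform (27.9), the pseudogene Cox6c-ps1 (33.9), Cox6b2, a testis isoform (54.1), Cox4i2, the lung isoform of subunit 4 (135), the F1 subunit Atp5f1c (370) and the membrane subunit Atp5mg (631). The first pair lie near the lower quartile of the arrays, which was 26 to 30, so that their differences carry little information. Arrays of the same group correlated with r between 0.989 and 0.997 over all probe sets. The array EX 3 mo after swim, replicate 3, stood apart for the members. Its mean log2 over the members was 11.40 (11.33 on the next highest array), 16 members had their highest value on it (5 at most on any other array), and its interquartile range of log2 values, 3.08, was the lowest. Its effect on the calls is given beside the results it touches. Besides these, leaving it out ended the calls of Cox6b2, at -0.10 (adjusted p = 0.11), and Atp5pb, at 0.04 (adjusted p = 0.11), with age after swim, and it added a call of Atp5pd with age at rest, at 0.05 (adjusted p = 0.0835). With swim it added calls of Cox7b, Atp5mg and Atp5pf in the mean of all settings, at -0.06 (adjusted p = 0.0952), -0.10 (adjusted p = 0.0467) and -0.06 (adjusted p = 0.0458). At 3 mo it added Cox7c and Atp5f1e, at -0.08 (adjusted p = 0.0602) and -0.14 (adjusted p = 0.00165), and at 16 mo Cox4i1, Cox6a1 and Atp5mg, at -0.05 (adjusted p = 0.0868), 0.06 (adjusted p = 0.0979) and -0.14 (adjusted p = 0.0403). In the difference between the ages it added Uqcrc1, at 0.08 (adjusted p = 0.0948), and Cox8b, at 0.18 (adjusted p = 0.0119). The interquartile range moved with the groups: it averaged 3.23 to 3.31 in the groups of 3 mo at rest, 3.13 to 3.20 at 3 mo after swim, 3.19 to 3.24 at 16 mo at rest and 3.28 to 3.35 at 16 mo after swim. Its part in the differences below was not tested beyond a fit with this range as a covariate. Heart muscle as the tissue was borne out by the heart muscle genes, all 10 of which were bright (mean intensities 4507 to 10909). Whether the pieces were left ventricle alone was not tested. The 3 measured atrial genes had summed intensities of 892 to 8444 over the arrays.

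In the mean over the 6 settings of activity and swim, 29 of the 44 members were called lower and 3 higher in the ventricle at 16 mo than at 3 mo, with a median difference of -0.10, while over all probe sets 21.3% were called lower and 23.7% higher, with a median of -0.00. Bright probe sets were called more often than the array as a whole, so the 38 bright members are better set against bright probe sets. Of these members 24 were called lower and 3 higher, against 33.3% lower and 31.9% higher of the bright probe sets. The members called lower were 4 of 7 in complex III, 13 of 16 in complex IV and 12 of 16 in complex V, and none of complex II in this mean. The 3 called higher were Sdha, Atp5pb and Atp5if1. In whole tissue, fewer cells of a type and less RNA per cell cannot be told apart.

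The decline with age was seen in the hearts taken at rest and, in part with other genes, in the hearts taken after swim. At rest 27 members were called lower and 2 higher (all probe sets: 16.2% and 20.7%), with a median of -0.09 against 0.03 over all probe sets. After swim 20 were lower and 6 higher (29.0% and 25.2%), and the median was -0.05. These shares are of all probe sets. Bright ones were called lower more often in the mean of all settings (33.3% against 21.3%) and are not set beside the counts here. When each array was centred on its own median, the counts after swim became 11 lower and 9 higher with a median of 0.00, whereas at rest 31 were lower and none higher. All probe sets moved too. After swim 5322 of the 29157 were then lower and 9872 higher, with a median of 0.04. At rest 6113 were lower and 3668 higher, with a median of -0.01. With the interquartile range as a covariate, 18 members were lower and 1 higher after swim (all probe sets: 3307 and 3918 of 29157). At rest 26 were lower and 3 higher in that fit (4586 and 5332). Without the covariate, the 6 called higher after swim were Sdha, Sdhb, Sdhc, Cox6a2, Atp5f1d and Atp5pb. Without centring or covariate, the members lower in both states were 13: Uqcrh, Cox4i1, Cox6a1, Cox7a2, Cox7a2l, Cox7c, Cox8b, Atp5f1e, Atp5me, Atp5mg, Atp5mk, Atp5pf and Atp5po.

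**Figure D1:**
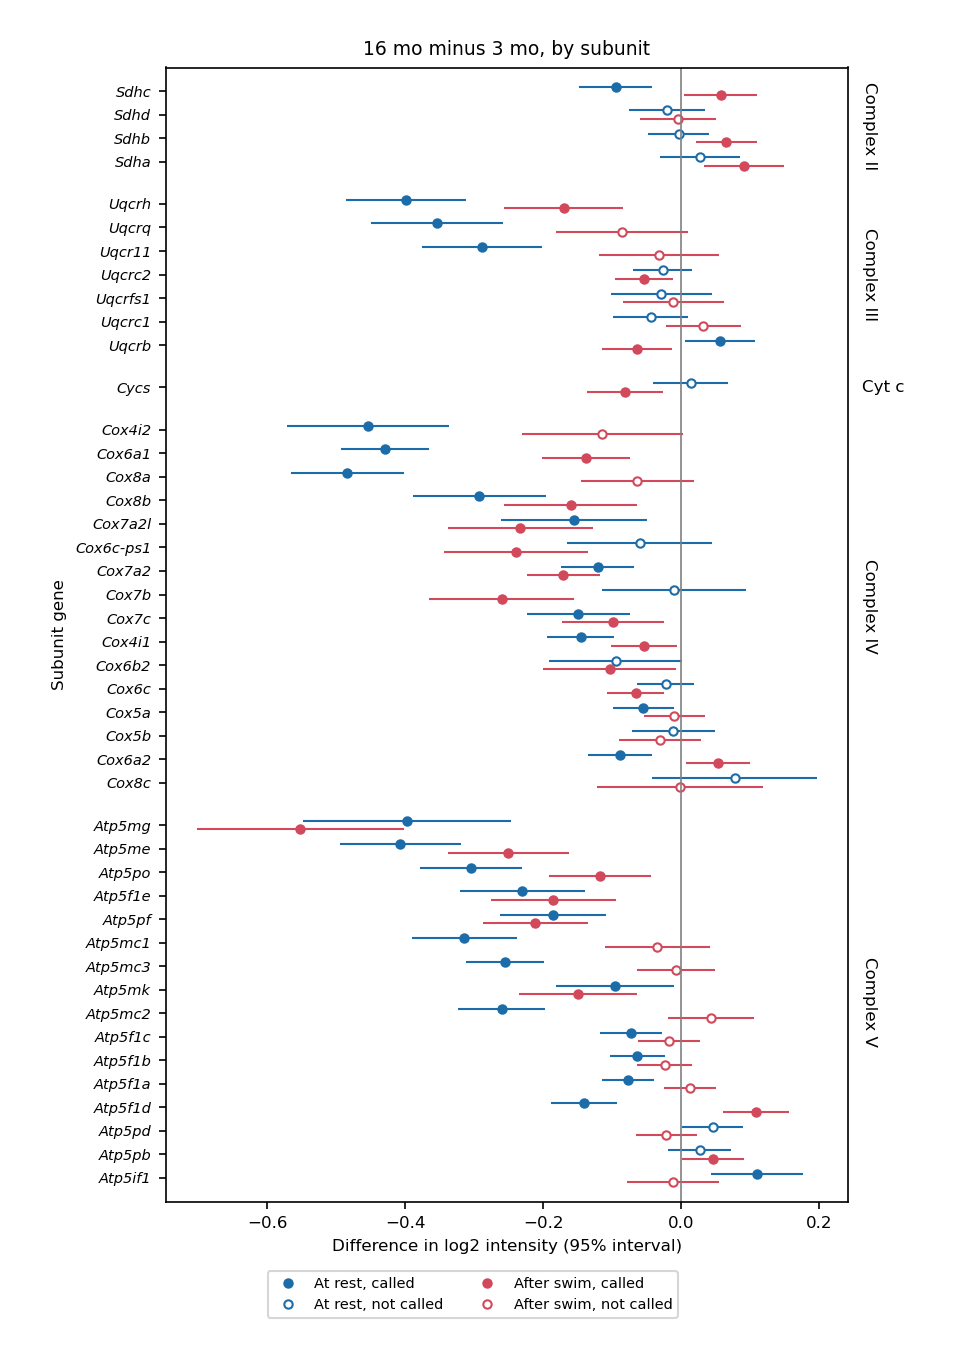
Difference of log2 intensity between 16 mo and 3 mo (16 mo minus 3 mo, horizontal axis) of the 44 members, ordered by complex, at rest and after swim, each the mean over SED, PA and EX (24 arrays per state). Bars are 95% intervals and filled points are called at an adjusted p under 0.10. The points farthest to the left are at -0.48 for Cox8a at rest and -0.55 for Atp5mg after swim, and the complex II points lie between -0.09 and 0.09.

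Complex II had no member called lower in the mean of all settings. Sdha, the flavoprotein that oxidises succinate, had intensities of 4314 to 5251 (median 4931) on the 24 arrays of 3 mo and 4530 to 5484 (median 5157) on the 24 of 16 mo. These ranges overlapped, and Sdha rose by 0.06 (standard error 0.02, adjusted p = 0.0174) with age. The iron-sulfur subunit Sdhb did not pass in the mean of all settings, at 0.03 (standard error 0.02, adjusted p = 0.11), but it passed when the array that stood apart was left out, at 0.04 (adjusted p = 0.0396). For the membrane anchor subunit Sdhc the age difference was not the same at rest and after swim, with a tested difference of 0.15 (standard error 0.04, adjusted p = 0.00151) between them, which did not pass with the interquartile range as a covariate, at 0.11 (adjusted p = 0.15). Sdhc fell by 0.09 (standard error 0.03, adjusted p = 0.00532) with age at rest, where its intensities were 4455 to 4725 (median 4653) at 3 mo and 3970 to 4577 (median 4352) at 16 mo, with overlap. After swim the same gene rose by 0.06 (standard error 0.03, adjusted p = 0.0693) with age. Sdhd, the other anchor, showed no called difference with age, with -0.01 (standard error 0.02, adjusted p = 0.65) in the mean. Sdha and Sdhb both rose with age after swim, by 0.09 (adjusted p = 0.00834) and 0.07 (adjusted p = 0.0125). With the interquartile range as a covariate only 1 of all 44 members was called higher with age after swim. The calls of Sdha, Sdhb and Sdhc after swim thus did not all hold in that fit.

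In complex III, 3 of the 4 small subunits fell with age at rest and the large core subunits did not pass. Uqcrh, the hinge protein next to cytochrome c1, had 3037 to 3420 (median 3195) on the 12 resting arrays of 3 mo and 2141 to 2701 (median 2425.5) on the 12 of 16 mo. Every array of 16 mo lay below every array of 3 mo, and Uqcrh fell by 0.40 (standard error 0.04, adjusted p = 2.33e-09), that is, its intensity fell by 24.2%. How many of all probe sets were apart in this way was not counted, here or for the members below. Uqcrq, a small subunit near the ubiquinone site, fell by 0.35 (standard error 0.05, adjusted p = 2.48e-07) and Uqcr11, another small subunit, fell by 0.29 (standard error 0.04, adjusted p = 1.62e-06). The Uqcr11 intensities, 4002 to 4640 (median 4266) at 3 mo and 3195 to 3811 (median 3499.5) at 16 mo, did not overlap between the ages at rest, whereas those of Uqcrq did. The ubiquinone-binding protein Uqcrb went the other way and rose by 0.06 (standard error 0.02, adjusted p = 0.084) at rest, while after swim it fell by 0.06 (standard error 0.02, adjusted p = 0.0335). Its 2 further probe sets did not pass at rest, with 0.04 (adjusted p = 0.22) and 0.03 (adjusted p = 0.43). The rise of Uqcrb at rest was not called when arrays were centred on their medians, where 0 members were higher. After swim that centring moved the median of the members from -0.05 to 0.00, a shift close to the size of the Uqcrb fall. Of the core proteins, Uqcrc1 gave -0.04 (standard error 0.03, adjusted p = 0.22) and Uqcrc2 gave -0.03 (standard error 0.02, adjusted p = 0.36) at rest. Uqcrfs1, the Rieske iron-sulfur protein, gave -0.03 (standard error 0.04, adjusted p = 0.59).

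After swim fewer of the small subunits of complex III passed. Uqcrh still fell by 0.17 (standard error 0.04, adjusted p = 0.00135), with intensities of 2463 to 3493 (median 2964) at 3 mo and 2263 to 2733 (median 2569.5) at 16 mo, which overlapped. Uqcrq and Uqcr11 no longer passed, at -0.09 (standard error 0.05, adjusted p = 0.14) and -0.03 (standard error 0.04, adjusted p = 0.56). Uqcrc2 fell by 0.05 (standard error 0.02, adjusted p = 0.0334) there, but its difference went to 0.00 when arrays were centred on their medians. Cycs, which carries electrons from complex III to complex IV, fell by 0.08 (standard error 0.03, adjusted p = 0.0134) with age after swim and gave 0.01 (standard error 0.03, adjusted p = 0.73) at rest. Centring shifts all probe sets of a comparison alike. With age after swim it moved the median of the members from -0.05 to 0.00, a shift as large as most of the Cycs fall.

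In complex IV, 10 of 16 members were called lower with age at rest and 10 after swim, and its liver isoforms Cox6a1 and Cox8a were among the members with the largest falls. Cox6a1, the liver isoform of subunit 6a, had resting intensities of 2402 to 2772 (median 2587) at 3 mo and 1797 to 2069 (median 1910) at 16 mo. The ages did not overlap, and Cox6a1 fell by 0.43 (standard error 0.03, adjusted p = 2.98e-13), that is, its intensity fell by 25.7%. Its heart counterpart Cox6a2 fell by 0.09 (standard error 0.02, adjusted p = 0.00316) at rest and rose by 0.05 (standard error 0.02, adjusted p = 0.0555) after swim. Cox8a, the liver isoform of subunit 8, fell by 0.48 (standard error 0.04, adjusted p = 8.88e-12) at rest, that is, its intensity fell by 28.5%, from 2340 ± 126 to 1673 ± 92.8 (mean ± SD, n = 12 arrays each). Its resting ranges, 2031 to 2499 (median 2360) and 1518 to 1816 (median 1661), did not overlap. After swim Cox8a differed by only -0.06 (standard error 0.04, adjusted p = 0.20) between the ages.

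The heart isoform Cox8b fell by 0.29 (standard error 0.05, adjusted p = 7.84e-06) at rest, and fell by 0.16 (standard error 0.05, adjusted p = 0.00612) after swim. Its 12 resting arrays of 3 mo, at 3865 to 4379 (median 4031.5), again did not overlap with the 12 of 16 mo, at 2913 to 3705 (median 3330). The difference between isoforms of a pair was not tested. Of subunit 4, the ubiquitous Cox4i1 fell by 0.15 (standard error 0.02, adjusted p = 8.48e-06) at rest and the lung isoform Cox4i2, a dim gene with resting ranges of 132 to 191 (median 165.5) and 91 to 144 (median 122.5), fell by 0.45 (standard error 0.06, adjusted p = 9.57e-08). Cox4i1 passed after swim as well, at -0.05 (standard error 0.02, adjusted p = 0.0619), but not without the array that stood apart, at -0.04 (adjusted p = 0.12), and centring took it to 0.00. Cox7a2, the liver isoform of subunit 7a, fell by 0.15 (standard error 0.02, adjusted p = 5.02e-08) in the mean of all settings. Cox7a2l, a relative of subunit 7a that takes part in supercomplexes, fell by 0.19 (standard error 0.04, adjusted p = 5.06e-05). For the testis isoforms the values were -0.10 (standard error 0.03, adjusted p = 0.0181) for Cox6b2 and 0.04 (standard error 0.04, adjusted p = 0.50) for Cox8c, both below the median intensity of the arrays (77 to 85).

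The remaining members of complex IV had smaller or less steady differences. Cox5a and Cox5b, the subunits of the matrix side, stood at -0.03 (standard error 0.02, adjusted p = 0.0987) and -0.02 (standard error 0.02, adjusted p = 0.46) in the mean of all settings. The first of these was called only with the array that stood apart, and its difference was -0.03 (adjusted p = 0.14) without it, although a second probe set of Cox5a fell by 0.06 (standard error 0.02, adjusted p = 0.00464). Cox7c fell by 0.12 (standard error 0.03, adjusted p = 1.90e-04) and Cox6c fell by 0.04 (standard error 0.01, adjusted p = 0.0155). Cox7b was the member whose age difference changed the most in the opposite sense to Cox8a. It gave -0.01 (standard error 0.05, adjusted p = 0.90) at rest, and after swim it fell by 0.26 (standard error 0.05, adjusted p = 9.93e-05). Its intensities after swim were 3306 to 5283 (median 3811.5) at 3 mo and 2791 to 3622 (median 3168.5) at 16 mo, with overlap. The pseudogene Cox6c-ps1 fell by 0.24 (standard error 0.05, adjusted p = 2.79e-04) after swim, on intensities of 29 to 46 (median 36) and 25 to 36 (median 30.5).

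In complex V, 12 of 16 members fell in the mean of all settings, from the membrane sector as well as from the F1 head. At rest the median difference of the 3 small membrane subunits was -0.40, that of the 3 genes of the c ring -0.26, and that of the 5 F1 subunits -0.08. The difference between these classes was not tested. Atp5me, subunit e of the membrane sector, had resting intensities of 1691 to 1921 (median 1800) at 3 mo and 1239 to 1497 (median 1358) at 16 mo. No array of 16 mo reached those of 3 mo, and Atp5me fell by 0.41 (standard error 0.04, adjusted p = 1.95e-09), that is, its intensity fell by 24.6%. After swim it fell by 0.25 (standard error 0.04, adjusted p = 1.32e-05). Atp5mg, subunit g and partner of subunit e at the dimer interface, fell by 0.40 (standard error 0.07, adjusted p = 5.97e-05) at rest. After swim it had 604 to 1278 (median 711) at 3 mo and 421 to 600 (median 498.5) at 16 mo. The ages did not overlap on these arrays, and it fell by 0.55 (standard error 0.07, adjusted p = 1.69e-07), that is, its intensity fell by 31.8%. The value of 1278 is on the array that stood apart, which enlarges this fall. Leaving it out took Atp5mg in EX 3 mo after swim from 0.37 to 0.16 above its mean over the 12 groups. Without the array that stood apart the difference of Atp5mg in the mean of all settings was -0.44 (adjusted p = 2.01e-11), against -0.47 (standard error 0.05, adjusted p = 2.19e-09) with it. Atp5mk, the small subunit also known as DAPIT, fell by 0.12 (standard error 0.03, adjusted p = 0.00118).

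Atp5mc1, Atp5mc2 and Atp5mc3 code for the same mature c subunit with different import sequences. All 3 fell at rest with no overlap of the ages, by 0.31, 0.26 and 0.26 (adjusted p = 2.55e-08, 2.43e-08 and 3.17e-09). The share of all probe sets without such overlap was not counted. For Atp5mc1 the resting intensities were 2831 to 3134 (median 2892) at 3 mo and 2182 to 2601 (median 2299.5) at 16 mo. After swim none of the 3 probe sets used passed, with -0.03, 0.04 and -0.01 (adjusted p = 0.46, 0.25 and 0.85). Second probe sets did pass there and lay on opposite sides of 0, that of Atp5mc2 at 0.10 (standard error 0.03, adjusted p = 0.00449) and that of Atp5mc3 at -0.14 (standard error 0.04, adjusted p = 0.00134). Without the array that stood apart the Atp5mc2 probe set used passed as well, at 0.06 (adjusted p = 0.0898). A second probe set of Atp5mc3 fell more than the one used, by 0.58 (standard error 0.04, adjusted p = 2.63e-15) at rest.

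All 5 F1 subunits fell at rest. Atp5f1a and Atp5f1b, the alpha and beta subunits that form the catalytic sites, fell by 0.08 (standard error 0.02, adjusted p = 0.00141) and 0.06 (standard error 0.02, adjusted p = 0.0135). Over 12 resting arrays each, Atp5f1a had 9356 to 9869 (median 9657.5) at 3 mo and 8656 to 9488 (median 9173.5) at 16 mo, which overlapped. The gamma subunit Atp5f1c fell by 0.07 (standard error 0.02, adjusted p = 0.0112). Atp5f1d, the delta subunit of the central stalk, fell by 0.14 (standard error 0.02, adjusted p = 1.33e-05) at rest but rose by 0.11 (standard error 0.02, adjusted p = 2.94e-04) after swim. Atp5f1e, the epsilon subunit, fell by 0.23 (standard error 0.05, adjusted p = 1.18e-04) at rest and fell by 0.18 (standard error 0.05, adjusted p = 0.00102) after swim.

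Of the peripheral stalk, which holds the head still, Atp5po, the oligomycin sensitivity protein, fell by 0.30 (standard error 0.04, adjusted p = 2.86e-08) at rest. Its arrays lay at 3260 to 3652 (median 3382) at 3 mo and 2533 to 3072 (median 2718) at 16 mo, without overlap. Atp5pf, coupling factor 6, fell by 0.20 (standard error 0.03, adjusted p = 1.39e-07) in the mean of all settings, with 1042 to 1309 (median 1109) at 3 mo and 883 to 1135 (median 962.5) at 16 mo, which overlapped. Atp5pb, subunit b, rose by 0.04 (standard error 0.02, adjusted p = 0.0632), a call that was lost without SED 3 mo after swim, replicate 1 (0.03). Atp5pd, subunit d, gave 0.01 (standard error 0.02, adjusted p = 0.56), but its second probe set fell by 0.11 (standard error 0.02, adjusted p = 0.000139), so that the gene has no settled direction. Atp5if1, the inhibitor of ATP hydrolysis by complex V, rose by 0.11 (standard error 0.03, adjusted p = 0.0094) at rest, on 3189 to 3754 (median 3484.5) at 3 mo and 3392 to 4163 (median 3742) at 16 mo, with overlap. Its rise in the mean of all settings, 0.05 (standard error 0.02, adjusted p = 0.0892), was lost without EX 3 mo after swim, replicate 2 (0.04). The rise of Atp5if1 at rest was not called when arrays were centred on their medians, where 0 members were higher.

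The single arrays show how steady the largest of these differences were. Cox6a1 had 2532, 2530, 2630 and 2554 on the resting SED arrays of 3 mo and 1797, 2069, 1943 and 1869 on those of 16 mo. In PA the values were 2446, 2620, 2637 and 2402 at 3 mo and 1837, 1918, 2018 and 1902 at 16 mo. In EX they were 2463, 2772, 2645 and 2673 at 3 mo and 1970, 1810, 1847 and 1975 at 16 mo. Within each of the 3 regimes the ages were thus apart on every array. Cox8a, the other liver isoform, had 2226, 2257, 2358 and 2499 in resting SED hearts of 3 mo and 1634, 1664, 1679 and 1571 at 16 mo. In SED hearts after swim it had 1833, 2071, 1972 and 1916 at 3 mo and 1793, 1897, 1923 and 1637 at 16 mo, and there the ages overlapped. Atp5mg, the membrane subunit g, had 738, 704, 1278 and 604 in EX hearts of 3 mo after swim, of which the third is the array that stood apart, and 456, 600, 554 and 585 at 16 mo.

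**Figure D2:**
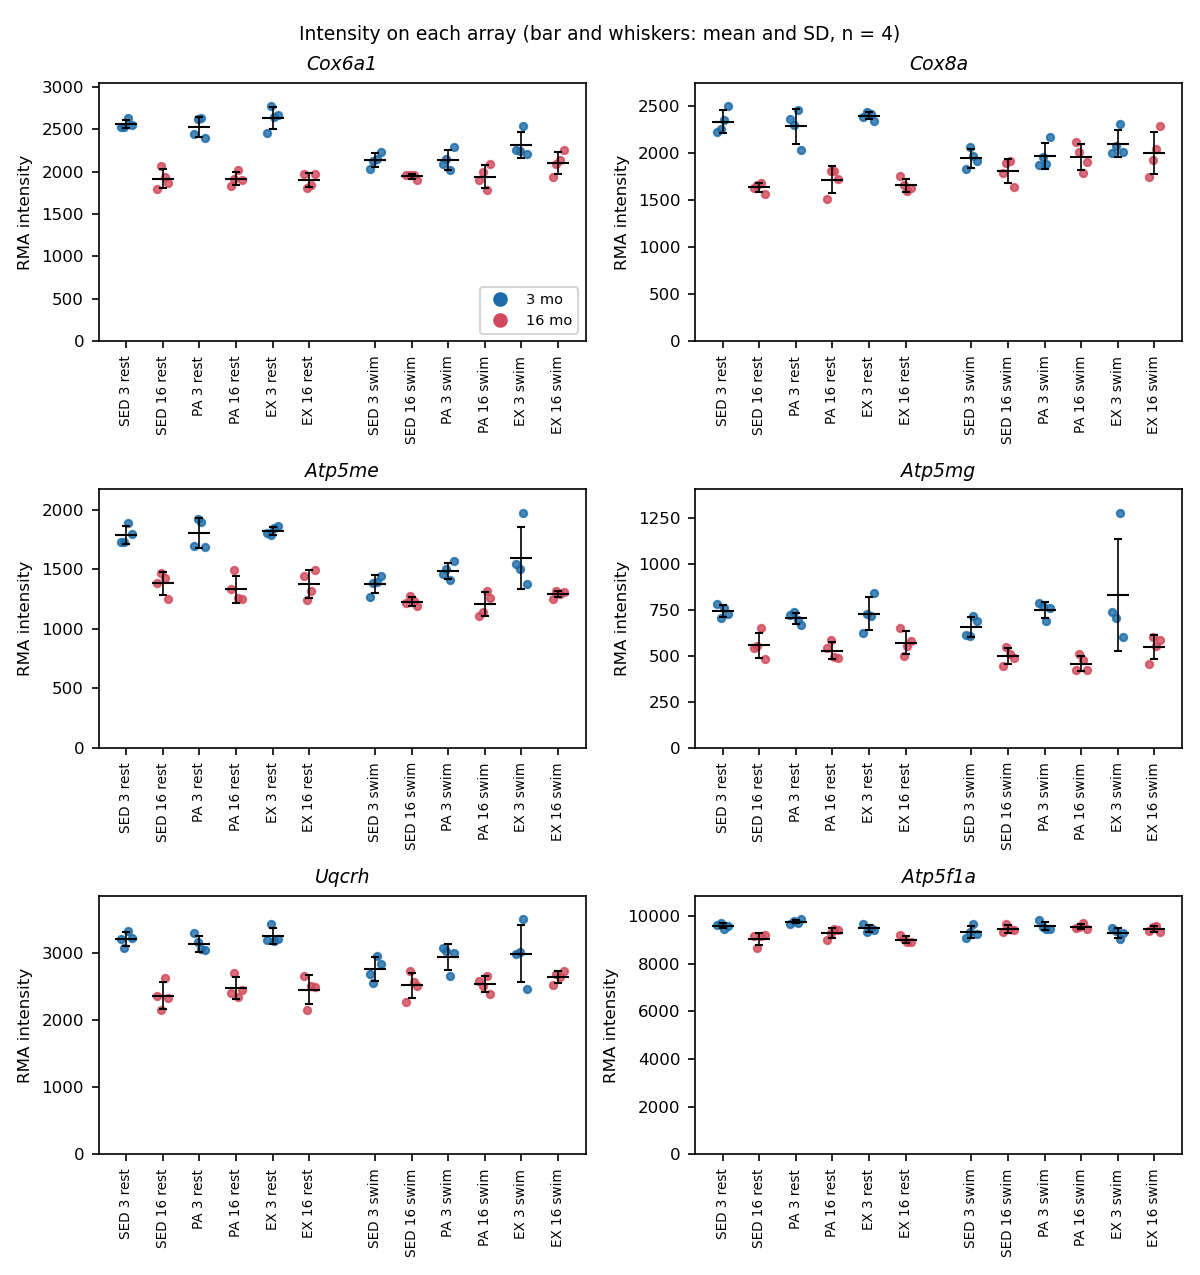
Array intensities (linear scale, vertical axis) of 6 members in the 12 groups of age, activity and swim. Points are single arrays, 4 per group, and bars and whiskers are the group mean and SD. Cox6a1 ranges from 1797 to 2069 at 16 mo at rest, below all resting arrays of 3 mo, while the ranges of Atp5f1a overlap between the ages.

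The age difference was present within each activity regime. At rest 18 members were lower and none higher in SED (all probe sets: 8.15% and 6.69%), 16 lower and none higher in PA (8.16% and 8.22%), and 18 lower and none higher in EX (6.58% and 6.91%). After swim the counts were smaller: 5 lower and 1 higher in SED (12.5% and 14.0%), 11 lower and 1 higher in PA (8.64% and 11.3%), and 11 lower and 1 higher in EX (14.8% and 15.2%). The 5 of 44 in SED after swim is no larger a share than that of all probe sets. Shares of bright probe sets, which were called more often in the mean of all settings, are not set beside these counts. The EX count after swim rested on few arrays. It was 5 lower and 1 higher without the array that stood apart, and none passed when only the 8 arrays of those 2 groups were fitted, with 4 members at an unadjusted p under 0.05 and 1890 probe sets called. The PA count after swim was 7 in all without PA 3 mo after swim, replicate 1 or replicate 2. Cox6a1 and Atp5mg were lower in all 6 settings, although Cox6a1 did not pass in EX after swim without the array that stood apart, at -0.09 (adjusted p = 0.28). Of the 44 members, 19 had a difference below 0 in all 6, and 18 were called in none. A rebuilt SAM test with 70 permutations, run on the resting ages, called 14 members in SED, all lower (all probe sets: 7.47% lower and 10.9% higher), and 15 in EX, all lower (5.93% and 7.83%). Among all probe sets these were 2179 lower and 3174 higher in SED and 1728 and 2283 in EX. The paper reports far fewer genes for these comparisons, so the rebuilt test did not reproduce its list. Why they differ was not tested.

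Since many members fell together, their promoters were read for the motifs of factors known to act on nuclear genes of the respiratory chain. RefSeq promoters of the rat assembly GRCr8, 250 bases before to 50 after the start of the gene, were matched for 37 of the 44 members. Uqcr11, Uqcrb, Cox4i2, Cox6a1, Cox6c, Cox6c-ps1 and Atp5pd were not matched. The 3 matched members with the smallest adjusted p in the mean age difference are shown 5′ to 3′, with capitals at the motif matches on either strand. They are Atp5me (chr14:1464610-1464909, plus strand), Cox8a (chr1:213833574-213833873, minus strand) and Uqcrh (chr5:134790833-134791132, minus strand).
Atp5me: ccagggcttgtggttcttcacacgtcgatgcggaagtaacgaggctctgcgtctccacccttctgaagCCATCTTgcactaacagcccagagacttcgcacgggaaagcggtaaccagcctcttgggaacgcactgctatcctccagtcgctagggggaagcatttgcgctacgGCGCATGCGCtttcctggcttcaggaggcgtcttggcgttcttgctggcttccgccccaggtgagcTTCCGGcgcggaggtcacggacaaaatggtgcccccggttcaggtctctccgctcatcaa
Cox8a: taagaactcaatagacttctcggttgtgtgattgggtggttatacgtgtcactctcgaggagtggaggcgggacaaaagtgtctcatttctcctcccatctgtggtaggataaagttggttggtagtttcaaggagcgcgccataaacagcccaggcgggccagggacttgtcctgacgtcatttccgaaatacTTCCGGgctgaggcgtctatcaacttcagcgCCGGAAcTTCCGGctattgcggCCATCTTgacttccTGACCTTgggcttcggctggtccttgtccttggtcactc
Uqcrh: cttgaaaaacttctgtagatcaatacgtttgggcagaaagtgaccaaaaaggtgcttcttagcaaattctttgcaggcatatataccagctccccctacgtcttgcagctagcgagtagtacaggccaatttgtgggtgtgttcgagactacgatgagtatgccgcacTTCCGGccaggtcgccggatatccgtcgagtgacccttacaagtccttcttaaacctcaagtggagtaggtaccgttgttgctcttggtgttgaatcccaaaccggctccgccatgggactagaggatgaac

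The Atp5me promoter held the NRF1 motif GCATGCGC on both strands, 76 and 74 bases before the start, the GABPA motif CCGGAA on the minus strand (TTCCGG, 10 bases before the start) and the YY1 motif AAGATGG on the minus strand (CCATCTT, 182 before). In the Cox8a promoter CCGGAA lay on either strand at 3 places, 56, 25 and 18 bases before the start. It also held AAGATGG on the minus strand, 3 bases before the start, and the ERR motif AAGGTCA on the minus strand (TGACCTT), 11 bases after it. The Uqcrh promoter held CCGGAA once, as TTCCGG, 82 bases before the start. NRF1, GABPA, ERR and YY1 are transcription factors long tied to mitochondrial genes, and a match of letters is a description and not a site of binding.

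Over all members each motif was counted on both strands. The background was every promoter of the table, not matched to the members for base composition or brightness. G and C made up 43% to 69% of the member promoters. CCGGAA occurred in 18 of 37 member promoters (48.6%) and in 15.8% of all 27457 promoters of the table. TGCGCA, the core of the NRF1 motif, was found in 10 of 37 (27.0%, all promoters 7.68%). The longer GCATGCGC was found in 8 (21.6%, all 2.66%). It shares letters with the core but does not contain it, and it was chosen after its values were seen. AAGGTCA was found in 7 (18.9%, all 4.37%) and AAGATGG in 8 (21.6%, all 7.30%). Between the 24 matched members called lower with age and the 13 others, CCGGAA was present in 13 and 5, TGCGCA in 4 and 6, AAGGTCA in 6 and 1 and AAGATGG in 6 and 2. The longer GCATGCGC was present in 4 and 4. No test was run on these counts.

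In the mean over the 6 settings of age and activity, 19 members were called lower and 4 higher after swim, the bout of exercise, than at rest, with a median of -0.04, against 17.0% lower and 20.6% higher of all probe sets. The 38 bright members had 18 lower and 4 higher, against 27.8% and 30.1% of bright probe sets. Without the array that stood apart the counts were 22 lower and 4 higher. At 3 mo, 20 were lower and 5 higher (16.6% and 22.0% of all), with a median of -0.06. At 16 mo, 8 were lower and 9 higher, with a median of -0.01, and neither share of the 44 members was larger than that of all probe sets (23.6% lower and 22.4% higher). Centring each array on its median moved these to 27 lower and 1 higher at 3 mo (median -0.10) and to 3 lower and 17 higher at 16 mo (median 0.04). It moved all 29157 probe sets as well, to 6142 lower and 3168 higher at 3 mo (median -0.00). At 16 mo 4327 of them were then lower and 9067 higher (median 0.04).

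**Figure D3:**
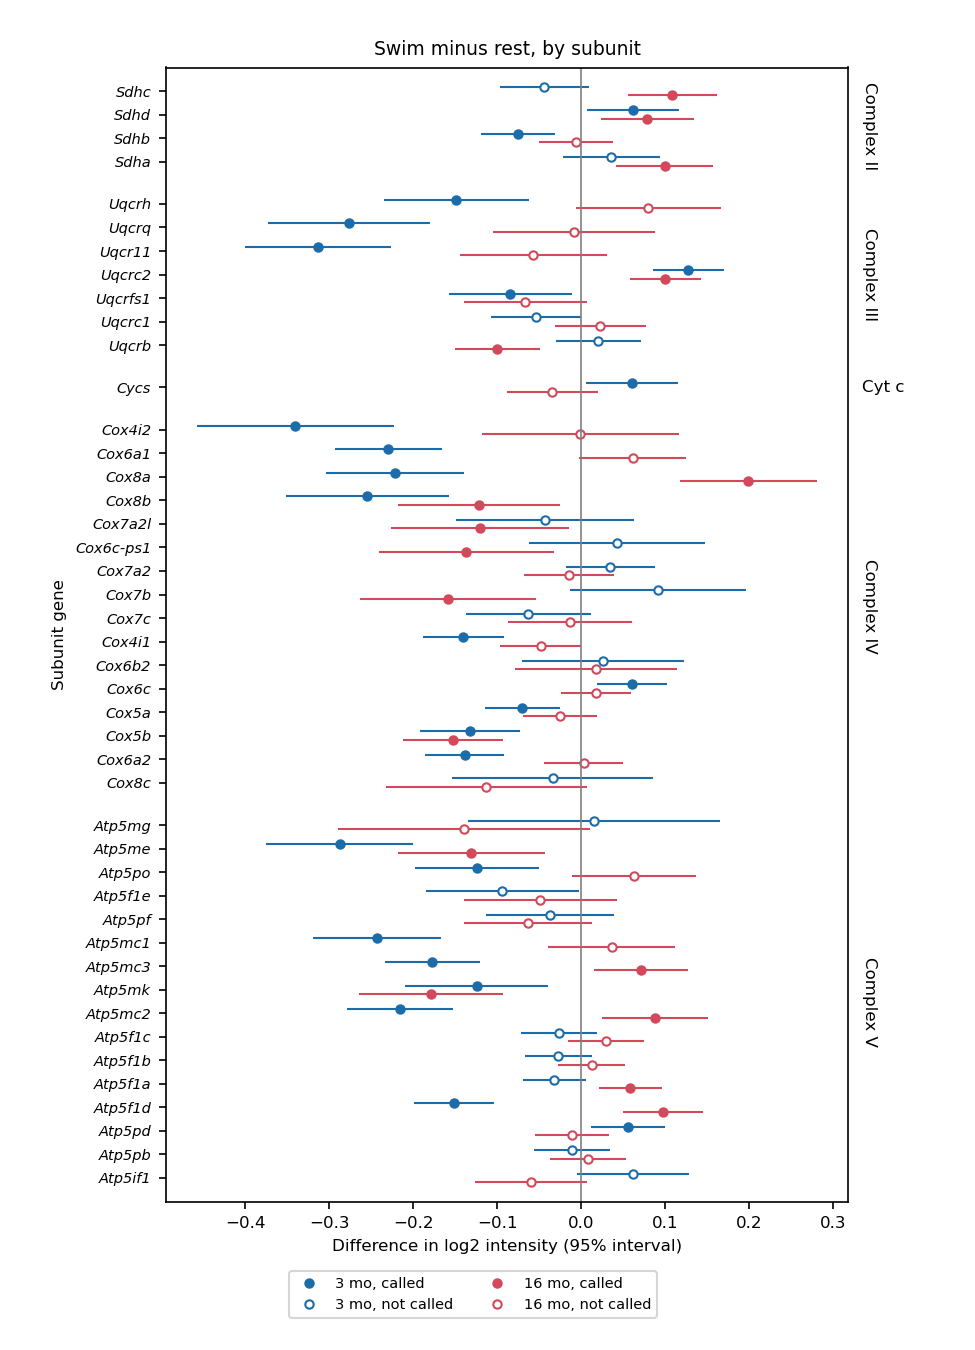
Difference of log2 intensity between hearts after swim and at rest (swim minus rest, horizontal axis) of the 44 members, ordered by complex, at 3 mo and at 16 mo, each the mean over SED, PA and EX (24 arrays per age). Bars are 95% intervals and filled points are called at an adjusted p under 0.10. For Cox8a the points lie on opposite sides of 0, at -0.22 at 3 mo and 0.20 at 16 mo.

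At 3 mo the members that fell after swim were led by Cox4i2, Uqcr11, Atp5me, Uqcrq and Cox8b. Uqcr11, a small subunit of complex III, had 4002 to 4640 (median 4266) on the 12 resting arrays and 2897 to 4376 (median 3476) on the 12 after swim, with overlap, and fell by 0.31 (standard error 0.04, adjusted p = 2.00e-07). The dim Cox4i2 fell by 0.34 (standard error 0.06, adjusted p = 1.09e-05). Atp5me, subunit e, fell by 0.29 (standard error 0.04, adjusted p = 1.20e-06), with 1691 to 1921 (median 1800) at rest and 1267 to 1973 (median 1450.5) after swim, which overlapped. The c ring genes fell as well, Atp5mc1 by 0.24, Atp5mc2 by 0.22 and Atp5mc3 by 0.18 (adjusted p = 1.93e-06, 5.09e-07 and 2.52e-06). For Atp5mc3 the arrays at rest, 5847 to 6489 (median 6166.5), and after swim, 4901 to 5764 (median 5534), did not overlap. Cox6a1 fell by 0.23 (standard error 0.03, adjusted p = 2.03e-07) and its heart counterpart Cox6a2 fell by 0.14 (standard error 0.02, adjusted p = 7.81e-06). The 5 members higher at 3 mo were Uqcrc2, Sdhd, Cycs, Cox6c and Atp5pd. For Atp5pd the probe set used gave 0.06 (adjusted p = 0.0456), whereas its second probe set was called lower, at -0.07 (standard error 0.03, adjusted p = 0.0991) at 3 mo and -0.14 (standard error 0.02, adjusted p = 6.47e-06) in the mean of all settings, so that the gene has no settled direction after swim either. Uqcrc2, a core protein of complex III, rose by 0.13 (standard error 0.02, adjusted p = 6.07e-06). Sdhd and Cycs, at 0.06 (adjusted p = 0.0812) and 0.06 (adjusted p = 0.0826), did not pass without the array that stood apart, at 0.06 (adjusted p = 0.11) and 0.05 (adjusted p = 0.16).

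At 16 mo members of complex II and Cox8a were higher after swim. Sdha rose by 0.10 (standard error 0.03, adjusted p = 0.00593), Sdhc rose by 0.11 (standard error 0.03, adjusted p = 0.00145) and Sdhd rose by 0.08 (standard error 0.03, adjusted p = 0.0213). Sdhc, an anchor subunit, had 3970 to 4577 (median 4352) at rest and 4350 to 5095 (median 4683) after swim, with overlap. Cox8a rose by 0.20 (standard error 0.04, adjusted p = 2.25e-04), with 1518 to 1816 (median 1661) at rest and 1637 to 2289 (median 1917) after swim, which overlapped. At 3 mo the same gene fell by 0.22 (standard error 0.04, adjusted p = 3.40e-05). Atp5f1d, the delta subunit, rose by 0.10 (standard error 0.02, adjusted p = 0.00149) and Uqcrc2 rose by 0.10 (standard error 0.02, adjusted p = 3.06e-04), as it did at 3 mo. The c ring gene Atp5mc2 and the alpha subunit Atp5f1a rose by 0.09 and 0.06 (adjusted p = 0.0238 and 0.0123). Lower at 16 mo after swim were Cox5b, which fell by 0.15 (standard error 0.03, adjusted p = 1.23e-04), Atp5mk, which fell by 0.18 (standard error 0.04, adjusted p = 0.00115), and Cox7b, which fell by 0.16 (standard error 0.05, adjusted p = 0.0149). Uqcrb and Atp5me fell too, by 0.10 and 0.13 (adjusted p = 0.00189 and 0.0159). Cox5b had a similar value at 3 mo, -0.13, and the tested difference between the ages was -0.02 (standard error 0.04, adjusted p = 0.74). In the mean of all settings the members called higher after swim were Uqcrc2 at 0.11, Sdhd at 0.07, Sdha at 0.07 and Cox6c at 0.04 (adjusted p = 8.08e-08, 0.00441, 0.00856 and 0.0381). On the other side Cox5b fell by 0.14 (standard error 0.02, adjusted p = 7.95e-07), Cox8b fell by 0.19 (standard error 0.03, adjusted p = 2.66e-05), Atp5me fell by 0.21 (standard error 0.03, adjusted p = 7.93e-07) and Uqcrfs1, the Rieske protein, fell by 0.08 (standard error 0.03, adjusted p = 0.0215). Uqcr11, Uqcrq, Atp5mk, Atp5mc1, Cox4i1 and Sdhb were also called lower, at -0.19, -0.14, -0.15, -0.10, -0.09 and -0.04.

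The change after swim differed between the ages for 23 members by the test of the difference itself (swim effect at 16 mo minus that at 3 mo). It was higher at 16 mo for 17 and lower for 6, against 19.6% and 26.1% of all probe sets. Among the bright probe sets 34.6% were higher and 19.1% lower, and 16 of the 38 bright members were higher and 5 lower. Centring raised the higher count to 27 and left 1 lower, with 8875 of the 29157 probe sets higher and 3792 lower. A fit with the interquartile range as a covariate gave 10 members higher and 3 lower. In that fit 2208 of all probe sets were higher and 2148 lower, fewer than the 5710 and 7596 without it. The 10 members that lost their call in that fit were Sdhb, Sdhc, Cox4i1, Cox6c-ps1, Atp5f1a, Atp5if1, Atp5po, Uqcrh, at 0.19 (adjusted p = 0.15), Cox4i2, at 0.19 (adjusted p = 0.30), and Cox7b, at -0.21 (adjusted p = 0.19). This difference is by construction also that of the age difference after swim and at rest. The largest was that of Cox8a at 0.42 (standard error 0.06, adjusted p = 3.77e-07). The dim Cox4i2 followed at 0.34 (standard error 0.08, adjusted p = 0.00134), then Atp5mc2 at 0.30 (standard error 0.04, adjusted p = 1.17e-06). Cox6a1, Atp5mc1 and Uqcrq had 0.29, 0.28 and 0.27 (adjusted p = 3.31e-06, 8.62e-05 and 0.00191). Among the 6 that went the other way, Cox7b had -0.25 (standard error 0.07, adjusted p = 0.00705), and -0.20 (adjusted p = 0.00488) without the array that stood apart. Atp5pd was called at -0.07 (standard error 0.03, adjusted p = 0.0807), lost its call without that array or without EX 16 mo at rest, replicate 2, and turned to 0.03 (adjusted p = 0.65) under centring. Sdhb, at 0.07, was not called without PA 16 mo after swim, replicate 4, or SED 16 mo after swim, replicate 1 (0.06 each).

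**Figure D4:**
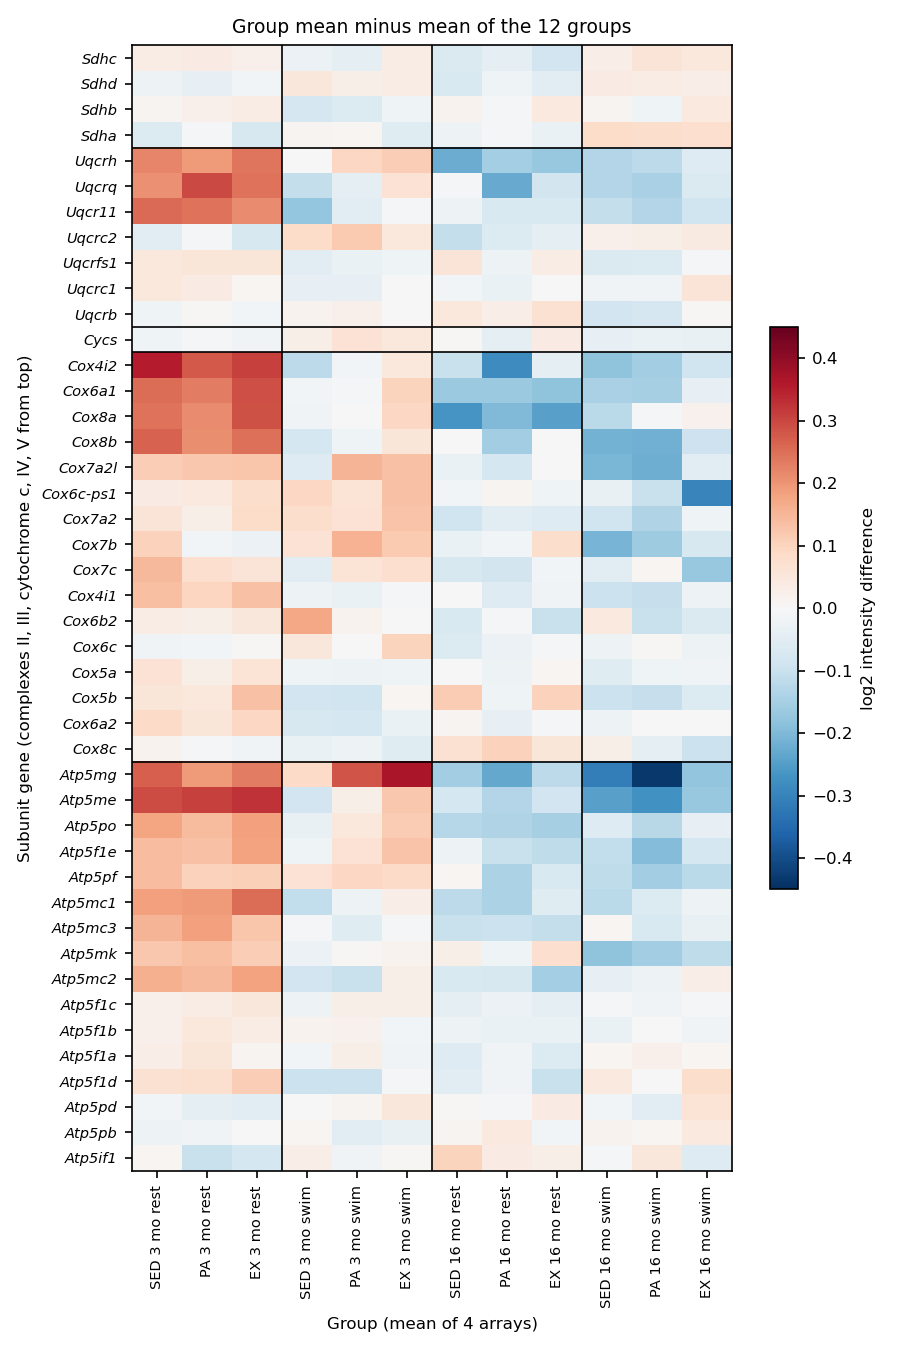
Mean log2 intensity of each member in each of the 12 groups (4 arrays each), relative to that member's mean over all groups. The colour scale is centred on 0. Atp5mg spans the widest range, from -0.43 in PA 16 mo after swim to 0.37 in EX 3 mo after swim (without the array that stood apart -0.41 and 0.16), and most members lie above their mean in the groups of 3 mo at rest.

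No member was called by limma between the activity regimes. EX minus SED in the mean over age and swim called none of the 44 (all probe sets: 0.00686%), with 5 members at an unadjusted p under 0.05, and PA minus SED called none (0%), with 0 at that p. At rest EX minus SED called none at 3 mo (0%) nor at 16 mo (0.00343%), with 0 at an unadjusted p under 0.05 at each age, and PA minus SED none either (0% and 0%), with 0 and 3. The age difference in EX or in PA minus that in SED was called for none (0% of all probe sets in each), with 0 and 1 members at an unadjusted p under 0.05. The smallest p of EX minus SED was that of Atp5mc1, a c ring gene, at 0.09 (standard error 0.03, adjusted p = 0.67). The extremes were Atp5mg, at 0.10 (standard error 0.06, adjusted p = 0.89), and Cox6b2, at -0.08 (standard error 0.04, adjusted p = 0.87). Without the array that stood apart Atp5mg gave 0.05 (adjusted p = 0.98) and the highest value was that of Cox7a2l, at 0.07 (adjusted p = 0.96). With all arrays, for PA minus SED the extremes were Cox8a at 0.04 and Cox6b2 at -0.06. Over all members the 95% intervals of the mean differences lay between -0.16 and 0.23 for EX and between -0.15 and 0.13 for PA.

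The other lists of mitochondrial genes are set against the shares of all probe sets called with age in the mean of all settings, 21.3% lower and 23.7% higher, and of bright ones, 33.3% and 31.9%. Of the nuclear-encoded subunits of complex I, which passes electrons from NADH to ubiquinone, 23 of 34 were lower and 1 higher with age in the mean of all settings (median -0.07), with 21 lower and 0 higher at rest. Among them Ndufb11 stood at -0.16 (standard error 0.02, adjusted p = 4.41e-09) and Ndufb10 at -0.16 (standard error 0.02, adjusted p = 1.87e-08). Of the assembly factors, 12 of 27 were lower and 5 higher with age. Cox17, the copper chaperone of complex IV, had 0.17 (standard error 0.02, adjusted p = 2.08e-10), and Cox20, which helps to insert a core subunit of complex IV, had -0.29 (standard error 0.04, adjusted p = 5.49e-08). Of the mitochondrial ribosome, 34 of 68 were lower and 5 higher with age, led by Mrpl53 with -0.25 (standard error 0.03, adjusted p = 1.01e-09) and Mrpl55 with -0.28 (standard error 0.03, adjusted p = 8.26e-09).

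Fuel oxidation, regulators and carriers were counted in the same way. Of the citrate cycle, 1 of 15 were lower and 6 higher with age (median 0.03), with Pdhx, a component of the pyruvate dehydrogenase complex, at 0.13 (standard error 0.02, adjusted p = 9.49e-07) and Ogdh, of the oxoglutarate dehydrogenase complex, at 0.10 (standard error 0.02, adjusted p = 1.71e-05). Of fatty acid oxidation, 7 of 21 were lower and 4 higher with age, neither of which is a larger share than among bright probe sets, with the fatty acid binding protein Fabp3 at -0.10 (standard error 0.02, adjusted p = 6.07e-06) and the thiolase Acaa2 at 0.13 (standard error 0.03, adjusted p = 1.87e-04). Of the regulators of mitochondrial gene expression, 2 of 20 were lower and 11 higher with age, among them the transcription factors Tfb2m at 0.21 (standard error 0.03, adjusted p = 2.77e-07) and Ppara at 0.22 (standard error 0.03, adjusted p = 3.46e-07). Of the carriers of ATP and other products, 2 of 8 were lower and 3 higher with age. The adenine nucleotide carrier Slc25a5 had -0.26 (standard error 0.02, adjusted p = 1.57e-14) and the outer membrane channel Vdac3 0.09 (standard error 0.02, adjusted p = 4.56e-05).

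After swim, in the mean of all settings, 17.0% of all probe sets were lower and 20.6% higher (bright ones 27.8% and 30.1%). Complex I had 15 of 34 lower and 4 higher genes, with Ndufa1 at -0.29 (standard error 0.03, adjusted p = 4.67e-09) and Ndufa3 at -0.22 (standard error 0.03, adjusted p = 2.54e-08). The assembly factors had 5 of 27 lower and 12 higher, with Cox11, a copper chaperone, at 0.29 (standard error 0.03, adjusted p = 1.81e-10) and Bcs1l, which inserts the Rieske protein into complex III, at 0.22 (standard error 0.03, adjusted p = 7.31e-09). The mitochondrial ribosome had 12 of 68 lower, near the share of all probe sets, and 23 higher, with Mrps2 at -0.26 (standard error 0.02, adjusted p = 9.29e-13) and Mrpl38 at -0.35 (standard error 0.03, adjusted p = 2.64e-11). Fatty acid oxidation had 3 of 21 lower and 11 higher, with Etfa at 0.11 (standard error 0.02, adjusted p = 5.72e-06) and Acadm at 0.10 (standard error 0.02, adjusted p = 1.83e-04). The citrate cycle had 1 of 15 lower and 6 higher, with Dld at 0.21 (standard error 0.02, adjusted p = 2.60e-11) and Sucla2 at 0.12 (standard error 0.02, adjusted p = 9.74e-08). The regulators had 7 of 20 lower and 7 higher, with the coactivator Ppargc1b at -0.29 (standard error 0.03, adjusted p = 4.71e-10) and Tfb1m at 0.27 (standard error 0.03, adjusted p = 7.43e-10). The carriers had 1 of 8 lower and 5 higher, with Slc25a5 at 0.16 (standard error 0.02, adjusted p = 4.80e-09) and the uncoupling protein Ucp2 at -0.26 (standard error 0.04, adjusted p = 1.51e-07).

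Markers of other cell types moved with age and swim too. Of the 8 fibroblast genes, 6 were lower with age (median -0.26), with summed intensities of 7465 to 12251 at 16 mo and 10114 to 13302 at 3 mo. The erythroid genes were both lower (median -0.47), and the lymphocyte genes both higher (0.20). Of 6 endothelial genes 3 were higher and 1 lower, of 6 genes of smooth muscle and pericytes 1 was higher and 2 lower, of 7 macrophage genes 4 were higher and 2 lower. The macrophage genes differed between the states: with age at rest 1 was higher and 4 lower (median -0.14). With age after swim 5 of them were higher and 0 lower (median 0.33). The macrophage genes also differed in their change after swim: all 7 had a higher swim effect at 16 mo than at 3 mo (median 0.52). After swim, in the mean of all settings, both erythroid genes were higher (median 0.33), 4 of 6 endothelial genes were lower (median -0.14) and 6 of 7 macrophage genes were higher (median 0.13). At 16 mo all 7 macrophage genes were higher after swim (median 0.45). None of the 4 measured adipocyte and 3 atrial genes was called with age in the mean of all settings, but with age after swim 2 of the 4 adipocyte genes were lower (median -0.20) and 1 of the 3 atrial genes was higher (median 0.68). Over all arrays these lists had summed intensities of 132 to 306 for adipocytes and 892 to 8444 for atrial muscle. The skeletal muscle genes, at 313 to 599 in sum, were dim. The heart muscle genes themselves were 2 higher and 5 lower (median -0.01), with sums of 78535 to 83456 at 16 mo and 78422 to 83540 at 3 mo. Their part in the members' differences was not tested.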

How the data were processed

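RNA from 48 left ventricle pools (3 rats each, 12 groups of 4) was hybridised to 1-colour Affymetrix arrays. The deposited values are intensities that the authors made by RMA in Bioconductor's affy package, on a linear scale as whole numbers. Which arrays were normalized together, and with which version, is not given in the sources used here. RMA brings the arrays to a like distribution, so a shift shared by most genes would not be seen, although interquartile ranges of log2 values still ran from 3.08 to 3.45. Groups came from the sample labels, and every column was matched by label (0 unmatched). No 2 arrays were identical.

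With 1 added to each intensity before log2, a mean per group was fitted to all 48 arrays in limma 3.58.1 (R 4.3.3, empirical Bayes, two-sided), adjusted by Benjamini-Hochberg over 29157 probe sets and called at an adjusted p under 0.10, the threshold that the study's methods set. SAM with 70 permutations at an FDR of 10% was rebuilt for the resting age comparisons, where it called far more probe sets than the paper lists genes.

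Named in the text were, per comparison, up to 3 called members of each complex and direction by adjusted p, the member with the largest difference each way, the isoform sets, complex II, and the ATP synthase genes Atp5f1a and Atp5pf. From each pathway list it was the 2 called genes with the smallest adjusted p in the age and swim means. Other members were added by the size of their values. The members, lists and rules were chosen with earlier results of these data known.

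Alternatives were quantile normalization, centring on array medians, a block for the replicate number, no pseudocount, a mean log2 of at least 5, the interquartile range as a covariate, an adjusted p under 0.05, only the arrays of the 2 groups compared, and each array left out in turn. Chosen after seeing the data were the bright probe sets and bright members as backgrounds, rest and swim averaged apart, the other probe sets of a gene, the array that stood apart left out of every comparison, and the longer NRF1 motif. The scripts were tested on simulated data. Depth does not apply to arrays, whose number limits the precision. Swim in the labels and the 30 min of submaximal exercise in the series design were read as 1 treatment.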

Additional observations from a re-analysis of the deposited data

Results flagged for a closer look

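Single arrays far from the other 3 of their group were looked for in 72 sets of 4 values, those of 6 members in the 12 groups, where chance marks about 1 in 20. In 5 of them the gap to the nearest array took up more of the group's range than Dixon's 95% critical value allows. For Cox6a1 these were EX 3 mo after swim, with 2540 against 2257 on the nearest array, and SED 16 mo after swim, with 1905 against 1958. For Uqcrh they were EX 3 mo at rest, with 3420 against 3199, and PA 3 mo after swim, with 2644 against 2997. For Atp5f1a it was SED 16 mo at rest, with 8656 against 9173. The first value is on the array that stood apart, EX 3 mo after swim, replicate 3.

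The swim effect differed between the ages, by the test of the difference itself, for 23 members, 17 of them higher and 6 lower at 16 mo, while of all probe sets 19.6% were higher and 26.1% lower. Bright probe sets, to which most members belong, leaned the other way from the whole array, with 34.6% higher and 19.1% lower. Given as the effect at 16 mo minus that at 3 mo on the log2 scale, the difference was 0.42 for Cox8a, 0.34 for Cox4i2, 0.30 for Atp5mc2, 0.29 for Cox6a1, 0.28 for Atp5mc1, 0.27 for Uqcrq, 0.26 for Uqcr11, 0.25 for Atp5f1d, 0.25 for Atp5mc3 and 0.23 for Uqcrh. It was 0.19 for Atp5po, 0.16 for Atp5me, 0.15 for Sdhc, 0.14 for Cox6a2, 0.09 for Cox4i1, 0.09 for Atp5f1a and 0.069 for Sdhb. It was -0.25 for Cox7b, -0.18 for Cox6c-ps1, -0.12 for Uqcrb, -0.12 for Atp5if1, -0.10 for Cycs and -0.067 for Atp5pd.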

How the results depend on the processing

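Of the counts of members called, the other settings moved these by more than 1.5 times. With age in SED after swim, 6 became 11 under quantile normalization and 3 with the interquartile range as a covariate. With age in PA after swim, 12 became 7 at an adjusted p under 0.05. With age in EX after swim, 12 became 7 at an adjusted p under 0.05, 6 with the covariate and 0 in a fit of only the arrays of the 2 groups compared. The swim effect at 16 mo minus that at 3 mo was called for 13 members with the covariate instead of 23. The calls among all probe sets fell as well, from 5710 higher and 7596 lower to 2208 and 2148. The cause was not tested. Atp5pd, at -0.067 in that difference, turned to 0.026 when arrays were centred on their medians.

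When each array was left out in turn, the count in PA after swim lay between 7 and 11 and that in EX after swim between 6 and 14. The age mean stayed between 30 and 32, SED at rest between 14 and 18, SED after swim between 4 and 9, PA at rest between 15 and 17, EX at rest between 15 and 18, the swim mean between 20 and 26, swim at 3 mo between 22 and 27, swim at 16 mo between 16 and 20 and the difference between 21 and 25. The comparisons between activity regimes called 0 members by limma under every setting run.

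Of the 43 values of named members, 42 kept direction and call with the replicate block, 41 under quantile normalization, 37 under centring, 35 with the covariate, and all 43 with the filter on dim probe sets and with no pseudocount. Those that lost their call under some setting were Atp5pb and Atp5if1 with age, Sdhb after swim, and Cycs, Sdhc, Sdhb, Uqcrh, Uqcrb, Cox7b, Cox6c-ps1, Atp5if1 and Atp5pd in the difference.

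Arrays with the same replicate number did not deviate together from their group means (median r of 0.004, and -0.006 for different numbers), so the numbers pair nothing. The replicate block gave 30 members with age, 23 for swim and 23 for the difference, and changed no count by more than 1.5 times. Dim probe sets and 4 arrays per group limit what could be called.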
